A study of Mus musculus with 6 samples.

Results

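The genes described here encode 10 proteins with which a podocyte holds on to the glomerular basement membrane: the integrin alpha chains Itga3 and Itgav, the integrin beta chains Itgb1, Itgb3 and Itgb5, the ILK complex genes Ilk, Parva and Lims1, and the adaptor genes Tln1 and Vcl. They were taken by name, as the exonic parts whose Ensembl identifier carries one of these symbols. An exonic part is a stretch of exon between neighbouring annotated exon edges, and a gene's count is the sum over its parts. The 10 genes were 10 of 36889 gene identifiers in the files and held 338 of 368092 exonic parts. All 10 passed the filter on low counts, as did 333 of their parts, and 322 parts were covered over their full length in all 6 libraries.

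The series set podocytes labelled as CD2BP2 knockout (3 libraries, KO1 to KO3) against podocytes labelled as wild type (3 libraries, WT1 to WT3), in polyadenylated RNA of mice on a C57BL/6 background. CD2BP2 is a protein of the U5 small nuclear ribonucleoprotein, and by its title the series asked how the protein acts in splicing and in keeping podocytes intact. The floxed allele was made in R1/E embryonic stem cells with the downstream loxP site after the third exon, and its neomycin cassette was removed with a FLPO deleter strain. The treatment text is the same for all 6 libraries and concerns bone marrow macrophages, of CD2BP2flox/flox MxCre+ mice and littermate controls given poly(I:C), and their culture with M-CSF; it gives no age and no Cre driver for podocytes. The labels do not say whether libraries came from separate animals. All p-values here cover only how far these 6 samples scatter, which could be technical scatter.

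Integrins are pairs of an alpha and a beta chain that bind matrix outside the cell and the cytoskeleton inside it. Talin binds the beta tail and switches the receptor on, vinculin ties talin to actin, and the ternary complex of the pseudokinase ILK with a PINCH protein and a parvin sits on the same tails. In podocytes the laminin receptor alpha3 beta1 is the main anchor, and loss of Itga3, Itgb1, Ilk or Tln1 from mouse podocytes is known to lead to proteinuria and foot process loss.

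Counts over all exonic parts were between 214948912 and 255554573 in the KO libraries and between 186022084 and 231312370 in the WT libraries. Levels are given in CPM, a gene's counts relative to the TMM-scaled library size, and, where genes are set side by side, in CPM per kb of exonic part length. The targeted transcript Cd2bp2 fell to 48.9 ± 1.93 CPM in KO, against 61.2 ± 0.56 CPM in WT (SD, n = 3 each; edgeR log2 fold change -0.32, adjusted p = 0.0297), so it was lower but still present in the libraries labelled KO. Its call was lost without KO1 (adjusted p = 0.106), KO2 (0.0737), WT1 (0.0963), WT2 (0.146) or WT3 (0.0606). The 12 podocyte markers summed to 20086 to 22017 CPM in KO and 22492 to 25419 CPM in WT, the 10 macrophage markers to 187 to 203 CPM in KO and 98.4 to 128 CPM in WT, and the 10 endothelial markers to 6711 to 7137 CPM in KO and 7323 to 7727 CPM in WT. For these 3 lists the KO and WT libraries did not overlap, and no marker of any list was at 0 in all libraries. Sums of the 10 markers of loop, distal tubule and collecting duct ran from 269 to 1437 CPM in KO, with KO2 highest, and from 182 to 338 CPM in WT, and those of the 10 proximal tubule markers from 874 to 1292 CPM in KO and from 458 to 1080 CPM in WT. Sums of the mesangial, parietal, lymphocyte and platelet lists overlapped as well. Gene by gene, log2 fold changes were above 0 for 10 of 10 loop, distal tubule and collecting duct markers (median 1.72, 1 past the test), 10 of 10 proximal tubule markers (0.53, 2 past it), 8 of 8 lymphocyte markers (0.85, 0 past it), 7 of 8 parietal markers (0.71, 1 past it) and 10 of 10 macrophage markers (0.79, 4 past it). The parietal sum was nonetheless 359 to 419 CPM in KO and 405 to 443 CPM in WT. Below 0 were 10 of 12 podocyte markers (-0.23, 1 past it), with 2 above 0 and the highest at 0.37. Also below 0 were 10 of 10 endothelial markers (-0.10, 0 past it), 7 of 9 mesangial markers (-0.19, 0 past it) and 3 of 6 tested platelet markers (-0.07, 0 past it).

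As single genes, Lims1 was the only one of the 10 that passed the edgeR quasi-likelihood test at a Benjamini-Hochberg adjusted p under 0.05, and it fell. Across all 19742 genes tested, 3.37% passed in either direction, 1.62% upward and 1.76% downward. Of the 10 genes, 4 had a log2 fold change above 0 and 6 below 0, with a median of -0.05, while the median over all genes tested was 0.01. Itgb5, Lims1 and Ilk were the genes whose KO and WT libraries did not overlap, Itgb5 and Lims1 with every KO library below every WT library and Ilk with every KO library above. Over all genes tested, 14.8% had every KO library below and 14.1% every KO library above, so a count of 2 and 1 in 10 was near that background.

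**Figure D1:**
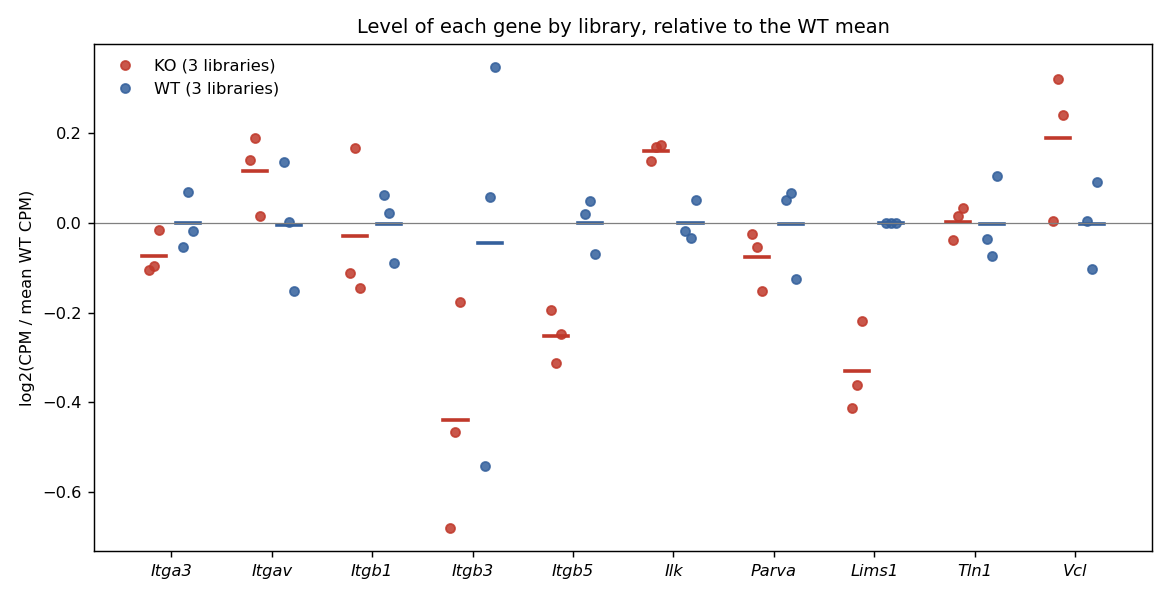
Level of each of the 10 genes in every library, as log2 of its CPM over the mean CPM of the 3 WT libraries; points are libraries (KO red and left, WT blue and right of each gene) and bars are group means of the log2 values. Itgb5, Lims1 and Ilk have KO points apart from the WT points, the 3 WT points of Lims1 lie on top of each other, and Itgb3 has the widest scatter in both groups.

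The alpha chains did not pass the test. Itga3 (ENSMUSG00000001507, chr11:94905788-94938115, minus strand, NCBIM37), the chain that pairs with beta1 as the podocyte's laminin receptor, stood at 902, 908 and 959 CPM in KO1 to KO3, against 935, 1018 and 958 CPM in WT1 to WT3. Its log2 fold change was -0.07 (SE 0.06, edgeR adjusted p = 0.508). The 2 groups overlapped, with KO3 above WT1 and WT3. Itgav (ENSMUSG00000027087, chr2:83564554-83647073, plus strand), whose product binds vitronectin and other RGD ligands with several beta chains, stood at 391, 405 and 359 CPM in KO1 to KO3 and at 390, 356 and 319 CPM in WT1 to WT3 (log2 fold change 0.12, SE 0.09, edgeR adjusted p = 0.471). Here too the groups overlapped: KO3 lay below WT1.

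The cytoplasmic tail of Itga3 comes in a pair of forms, made by use or omission of a 142-base exon that carries its own stop codon. The coding ends of both forms are shown to let them be compared, from the GENCODE M21 transcripts on GRCm38. The first is the end of the tail with the alternative exon (chr11:95046480-95046590, minus strand), the second that without it (chr11:95045608-95045763, minus strand), and the capitals mark the stop codon.
Itga3 tail with the alternative exon: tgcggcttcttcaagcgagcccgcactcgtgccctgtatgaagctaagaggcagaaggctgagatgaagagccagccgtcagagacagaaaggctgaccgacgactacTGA
Itga3 tail without the alternative exon: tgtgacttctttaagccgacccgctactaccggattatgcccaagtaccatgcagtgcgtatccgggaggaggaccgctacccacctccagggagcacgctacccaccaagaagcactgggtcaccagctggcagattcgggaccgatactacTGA
In the files the alternative exon is part 3 (chr11:94907763-94907904, NCBIM37), and part 4 is the exon before it. Counts per base in part 3 were 95.4%, 91.9% and 92.7% of those in part 4 in KO1 to KO3, and 92.7%, 96.2% and 94.4% in WT1 to WT3. In both genotypes the alternative exon was counted almost as densely as the exon before it. As a share of the counts of parts 3 and 4 together, part 3 had 51.3 ± 0.49% in KO and 51.6 ± 0.45% in WT (SD, n = 3 each), a difference of -0.29 points that was within the spread between libraries (exact permutation test, two-sided p = 0.6).

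Another Itga3 part had the smallest usage p of the gene. Part 12 (chr11:94917251-94917509, 259 bases) lies directly upstream of the exon of part 11 and is annotated only as the start of 1 of the gene's 7 transcripts; 4 transcripts splice over it. It drew 754, 551 and 890 counts in KO1 to KO3, against 468, 374 and 527 counts in WT1 to WT3. Its share of the counts of parts 11 and 12 together was 9.02%, 7.65% and 11.03% in KO1 to KO3, and 7.55%, 6.05% and 6.92% in WT1 to WT3. Every KO library was above every WT library, although KO2 and WT1 differed by little. The difference of 2.39 points had the smallest p that 3 against 3 libraries allow (exact permutation test, two-sided p = 0.1; 0.35 after Benjamini-Hochberg adjustment over 7 shares). In diffSpliceDGE of edgeR, a part's change is set against that of its gene, and the resulting usage is a natural log. The natural log usage of part 12 was 0.33 with an edgeR adjusted p of 0.638, so it did not pass. With limma-voom diffSplice the log2 usage was 0.47 and the adjusted p was 1.27e-05.

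Of the beta chains, Itgb1 (ENSMUSG00000025809, chr8:131209554-131257100, plus strand) was the gene with the highest level per kb among the 10. It stood at 1735, 2105 and 1695 CPM in KO1 to KO3, against 1956, 1904 and 1760 CPM in WT1 to WT3 (log2 fold change -0.02, SE 0.10, edgeR adjusted p = 0.920). KO2 was the highest of the 6 libraries and KO1 and KO3 the lowest, so no shift between the groups was detectable. The direction of so small a difference turned when KO1 (log2 fold change 0.02), KO3 (0.03) or WT1 (0.01) was left out.

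Itgb1 also has an annotated alternative exon in the region of its cytoplasmic tail, parts 21 and 22 of 75 and 6 bases. Its counts were 147, 129 and 150 in KO1 to KO3 and 146, 101 and 142 in WT1 to WT3. Per base that was 1.23 ± 0.16% of the exon before it in KO and 1.32 ± 0.20% in WT (SD, n = 3 each), so this exon was rare in all 6 libraries. Its share of the counts of parts 20 to 22 was 0.594 ± 0.079% in KO and 0.638 ± 0.096% in WT, within the spread between libraries (exact permutation test, two-sided p = 0.5). The pair of alternative exons in the tails of the alpha3 and beta1 chains thus stood at opposite ends, and in neither did the genotypes differ beyond the spread.

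Itgb5 (ENSMUSG00000022817, chr16:33829751-33949239, plus strand), a partner of the alpha v chain that binds vitronectin, stood at 984, 908 and 949 CPM in KO1 to KO3, against 1142, 1165 and 1073 CPM in WT1 to WT3. All KO libraries lay below all WT libraries. The log2 fold change was -0.25 (SE 0.06), with an edgeR adjusted p of 0.0767 that missed the threshold, while DESeq2 gave an adjusted p of 0.00396. The lower level ran along the gene: in 20 of its 24 tested parts every KO library was below every WT library. Parts of a gene share its change and some of its reads, so this count restates the result of the gene. The share over all parts in the table was not computed. An exon extension of 29 bases near its 3′ end (part 22) took 37.3 ± 0.19% of the counts of parts 21 and 22 in KO and 37.4 ± 0.20% in WT (SD, n = 3 each; two-sided p = 0.7 in the exact permutation test), so the mixture of these ends did not differ beyond the spread.

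Itgb3 (ENSMUSG00000020689, chr11:104469314-104531790, plus strand), the beta chain of the alpha v beta3 vitronectin receptor and of the platelet fibrinogen receptor, was the scarce gene of the 10. It stood at 9.29, 10.8 and 13.2 CPM in KO1 to KO3, against 10.2, 15.5 and 18.95 CPM in WT1 to WT3. WT1 lay among the KO libraries. The log2 fold change of -0.43 had an SE of 0.24 and did not pass (edgeR adjusted p = 0.344). The 8 platelet markers summed to 18.3 to 18.9 CPM in KO and 16.1 to 21.3 CPM in WT, and Itgb3 and this sum shared their lowest library (KO1 in KO, WT1 in WT) and their highest (KO3 in KO, WT3 in WT); the part of platelet RNA in the Itgb3 level was not tested.

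**Figure D2:**
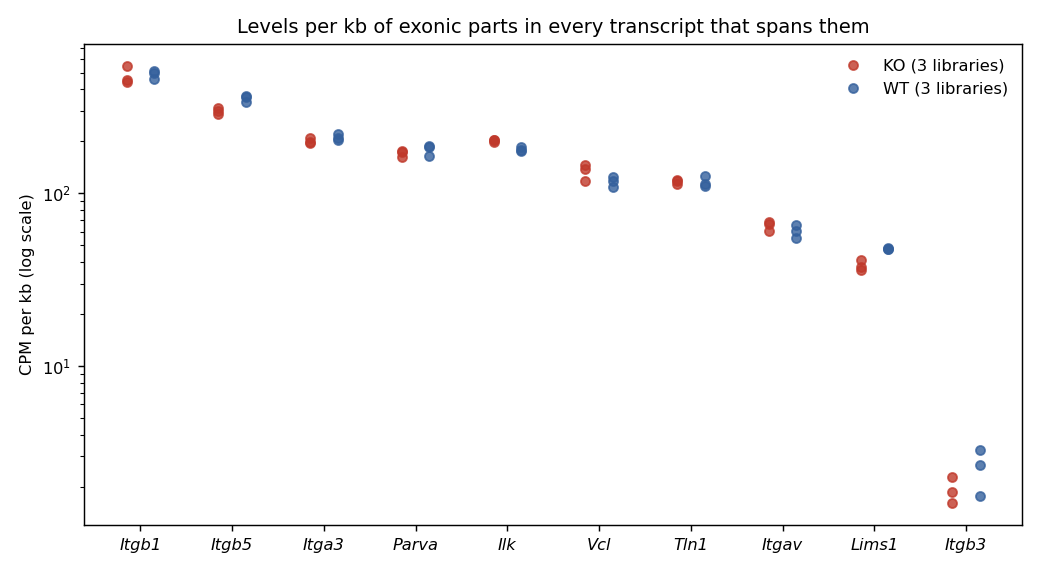
Levels of the 10 genes in CPM per kb on a log axis, counted over the parts held by every transcript that spans them, in the order of the WT means; each point is a library (KO red, left; WT blue, right). Itgb1 stands highest, near 482 in KO and 489 in WT, Itgb3 lowest, near 1.92 in KO and 2.57 in WT, and Ilk is above Parva in KO while the pair overlaps in WT.

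Placed side by side per kb, the beta chains were far apart. Over the parts held by every transcript that spans them, Itgb1 averaged 482 ± 57.9 CPM per kb in KO and 489 ± 25.2 in WT, Itgb5 299 ± 12.1 in KO and 356 ± 15.4 in WT, and Itga3 201 ± 6.996 in KO and 212 ± 8.86 in WT (SD, n = 3 each). Parva followed at 171 ± 7.72 CPM per kb in KO and 180 ± 13.04 in WT, and Ilk at 201 ± 3.12 in KO and 179 ± 4.62 in WT. Parva and Ilk overlapped in the WT libraries. In KO every library had more Ilk than Parva, and Ilk overlapped Itga3. A read over several parts counts in each, so genes cut into shorter parts count higher per kb. Ilk had 21 such parts over 1571 bases and Parva 19 over 4285 bases. The order between genes may therefore in part reflect how the annotation cuts them. Vcl (134 ± 15.1 CPM per kb in KO, 117 ± 8.13 in WT) and Tln1 (117 ± 2.94 in KO, 117 ± 7.70 in WT) overlapped in both groups. The lower end was formed by Itgav at 64.9 ± 3.94 in KO and 60.2 ± 5.25 in WT, Lims1 at 38.4 ± 2.61 in KO and 47.9 ± 0.07 in WT, and Itgb3. All other neighbours in this order were apart in both groups. Among all genes tested, the WT level per kb over all parts of a gene stood at percentile 99.8 for Itgb1, 93.0 for Lims1 and 45.1 for Itgb3.

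The level of one chain relative to its partner was also followed library by library, for 8 pairs chosen after the values had been seen. These ratios are of CPM per kb over all parts. Itgb5 over Itgav was 8.03, 7.17 and 8.45 in KO1 to KO3, against 9.36, 10.5 and 10.7 in WT1 to WT3, without overlap (exact permutation test, two-sided p = 0.1, adjusted over the 8 ratios 0.2). Itgb3 over Itgav (0.053 ± 0.012 in KO, 0.078 ± 0.030 in WT; SD, n = 3 each) and Itga3 over Itgb1 (0.361 ± 0.049 in KO, 0.371 ± 0.026 in WT) overlapped. The beta5 message was thus lower relative to alpha v in each KO library, while that of the laminin receptor's chains kept the same ratio within the spread.

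The genes of the ternary ILK complex did not move in one direction. Lims1, which encodes the adaptor PINCH1, fell. Ilk had the opposite sign and Parva lay between them, and neither of these passed the test.

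Ilk (ENSMUSG00000030890, chr7:112885106-112891439, plus strand) stood at 385, 394 and 395 CPM in KO1 to KO3, against 345, 342 and 363 CPM in WT1 to WT3. The KO libraries were all above the WT libraries. The log2 fold change was 0.16 (SE 0.05) with an edgeR adjusted p of 0.117, while DESeq2 gave 0.0361. In 18 of its 38 tested parts every KO library was above every WT library, and in 1, part 14, every KO library was below. As for Itgb5, the larger count restates the change of the gene.

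The counts of Ilk carry a limit of their own. All 38 parts overlap another gene on the other strand, Taf10 or Rrp8. Whether the counts separate strands is not given, so reads of these genes may be among those counted for Ilk. The longest Taf10 part, which spans 29 Ilk parts, stood at 162, 167 and 169 CPM in KO1 to KO3. In WT1 to WT3 it stood at 148, 145 and 155 CPM, so it was higher in every KO library, as Ilk was. Per kb this part averaged 47.3 CPM in KO and 42.7 in WT, and which gene its reads came from was not tested. The parts of Taf10 that overlap no gene averaged 21.6 CPM per kb in KO and 20.4 in WT, against about 201 and 179 for Ilk. Both levels also depend on how finely each gene is cut into parts. Parts between annotated Ilk exons are kept by some annotated transcripts and spliced over by others. They took 9.62 ± 0.91% of the counts of parts 11 to 31 in KO and 9.75 ± 0.59% in WT (SD, n = 3 each). In the exact permutation test the two-sided p was 0.9, so this share did not differ beyond the spread. Reads of the other strand may be among these counts, so the share does not measure intron-keeping Ilk transcripts alone. The smallest usage p of the gene was that of part 14 (chr7:112889382-112889473), one of these parts. Its natural log usage was -0.33 (edgeR adjusted p = 1.0), and limma-voom diffSplice gave an adjusted p of 0.0431.

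Parva (ENSMUSG00000030770, chr7:119571019-119735206, plus strand), which encodes alpha-parvin, the actin-binding partner of ILK, stood at 759, 744 and 696 CPM in KO1 to KO3, against 800, 809 and 708 CPM in WT1 to WT3 (log2 fold change -0.08, SE 0.07, edgeR adjusted p = 0.577). The groups overlapped because WT3 was low. Its part with the smallest usage p was part 14, a rare separate exon (chr7:119712764-119712903, 140 bases). This exon had 111, 47 and 110 counts in KO1 to KO3 and 167, 103 and 132 counts in WT1 to WT3. Its natural log usage was -0.57 (edgeR adjusted p = 0.985). Ilk and Parva lie on the chromosome of the targeted gene, 21.4 and 14.6 Mb from Cd2bp2.

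Lims1 (ENSMUSG00000019920, chr10:57786214-57887439, plus strand) stood at 159, 165 and 182 CPM in KO1 to KO3, against 211.4, 211.4 and 211.5 CPM in WT1 to WT3. The KO libraries were all lower, with KO3 nearest to WT, and the WT libraries were almost equal. The log2 fold change was -0.33 (SE 0.06, edgeR adjusted p = 0.0447). The call was lost without KO1 (adjusted p = 0.126), KO2 (0.110), WT1 (0.124), WT2 (0.179) or WT3 (0.0796), and held without KO3 (0.0444), with the log2 fold change between -0.39 and -0.29 throughout. Of its 22 tested parts 17 had every KO library below every WT library, which again restates the change of the gene.

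Lims1 has alternative first exons, and the fall was not even among them. The main ones are an upstream exon of 222 bases and an exon of 228 bases further downstream, both spliced to the same body. Their coding stretches are shown because each gives the protein another start; they come from the GENCODE M21 transcripts on GRCm38 (chr10:58323656-58323687 and chr10:58394419-58394600, plus strand), and the capitals mark the start codon.
Lims1 upstream first exon: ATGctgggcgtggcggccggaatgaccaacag
Lims1 downstream first exon: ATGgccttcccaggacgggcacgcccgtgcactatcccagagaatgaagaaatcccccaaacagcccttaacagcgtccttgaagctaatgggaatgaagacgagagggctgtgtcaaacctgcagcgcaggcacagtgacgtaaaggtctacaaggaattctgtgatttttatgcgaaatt
The upstream exon holds 32 coding bases and the downstream exon 182, so the downstream start gives the longer amino terminus. In the files the upstream exon is part 1 (chr10:57786214-57786435, NCBIM37), and the downstream exon is parts 4 and 5, of which part 5 (chr10:57857136-57857348) holds nearly all the counts.

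Part 5, from the downstream exon, stood at 1.37, 1.45 and 2.25 CPM in KO1 to KO3, against 2.96, 3.34 and 3.42 CPM in WT1 to WT3. Part 1, the upstream exon, stood at 1.58, 1.88 and 1.86 CPM in KO1 to KO3, against 1.88, 1.94 and 1.94 CPM in WT1 to WT3. The last part, 23, stood at 84.5, 88.8 and 95.1 CPM in KO1 to KO3, against 115, 112 and 111 CPM in WT1 to WT3. For parts 5 and 23 every KO library was below every WT library, while KO2 and WT1 were about level for part 1. The log2 ratio of the group means was -0.93 for the downstream first exon, -0.11 for the upstream one and -0.33 for the last part. Leaving the counts of parts 4 and 5 out of the gene, an alternative added after seeing the data, kept its log2 fold change at -0.32 (edgeR adjusted p = 0.0450).

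**Figure D3:**
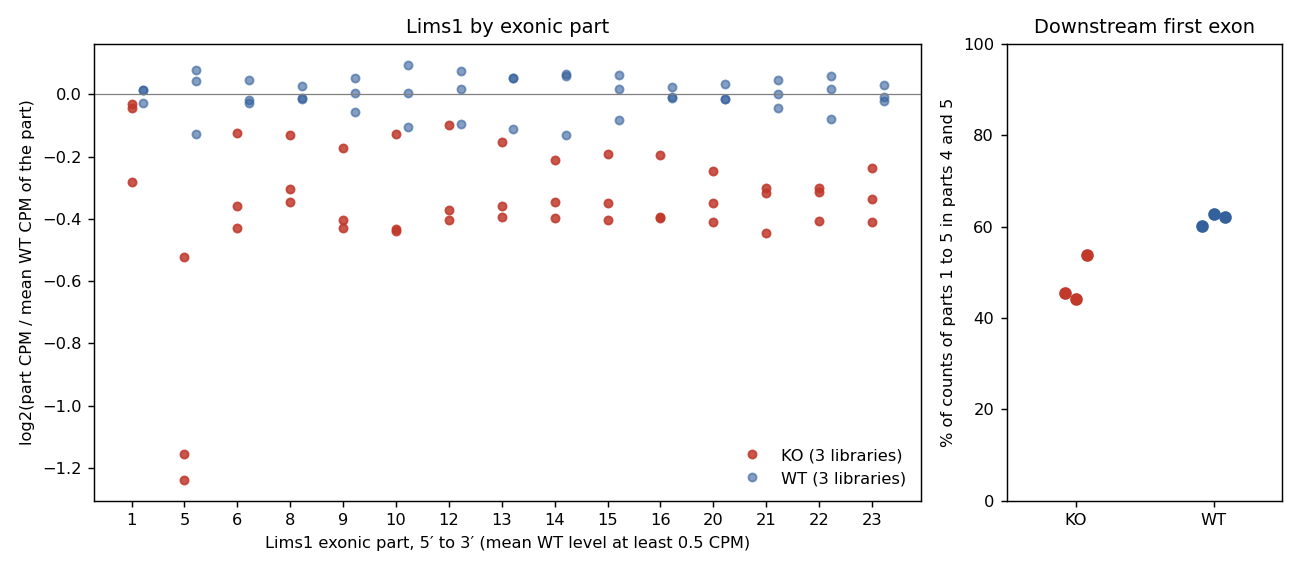
Left, log2 of the CPM of each Lims1 exonic part over its mean in the WT libraries, for parts with a mean WT level of at least 0.5 CPM, from the 5′ end to the 3′ end; right, the share of the counts of parts 1 to 5 on the downstream first exon. Points are libraries (KO red, left; WT blue, right). Part 5 of the KO libraries lies far below the body of the gene, part 1 lies close to WT, and the shares are 45.4%, 44.3% and 53.7% in KO1 to KO3 and 60.1%, 62.8% and 62.2% in WT1 to WT3.

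Of the counts in Lims1 parts 1 to 5, which hold the first exons upstream of the shared body, the downstream exon took 45.4%, 44.3% and 53.7% in KO1 to KO3, against 60.1%, 62.8% and 62.2% in WT1 to WT3. No library of one group reached the other, and KO3 again lay nearest to WT. The means were 47.8 ± 5.18% in KO and 61.7 ± 1.43% in WT (SD, n = 3 each), a difference of -13.9 points (two-sided p = 0.1 in the exact permutation test, which can go no lower; 0.35 adjusted over 7 shares, which were chosen after the values had been seen). These shares rest on 347 to 554 counts of the downstream exon per KO library and 566 to 801 per WT library. In diffSpliceDGE of edgeR, part 5 had a natural log usage of -0.42 and an adjusted p of 0.0550, just over the threshold. In limma-voom diffSplice this part had a log2 usage of -0.66. It passed with limma-voom diffSplice (adjusted p = 3.84e-05) and without KO3 (0.00238), and had an adjusted p of 1.0 without KO1.

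Relative to its partners, Lims1 was lower in KO as well. Lims1 over Ilk was 0.219, 0.222 and 0.243 in KO1 to KO3, against 0.324, 0.328 and 0.309 in WT1 to WT3 (exact permutation test, two-sided p = 0.1, adjusted 0.2). Lims1 over Parva was 0.410, 0.434 and 0.512 in KO1 to KO3, against 0.518, 0.512 and 0.586 in WT1 to WT3 (p = 0.1 in the same exact test, adjusted 0.2), with KO3 and WT2 almost equal. Lims1 over Lims2, the gene of the paralogous adaptor PINCH2, overlapped at 0.534 ± 0.065 in KO and 0.545 ± 0.046 in WT (SD, n = 3 each), since Lims2 was lower in KO by about as much.

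The podocyte marker sum was itself lower in KO, and in RNA of a whole sample fewer podocytes and less RNA per podocyte cannot be told apart. Per 1000 CPM of the 12 podocyte markers, Lims1 stood at 7.22, 8.20 and 8.84 CPM in KO1 to KO3 and at 8.51, 8.32 and 9.41 CPM in WT1 to WT3, so on this scale the groups overlapped. Itgb5 overlapped likewise, at 45.4 ± 0.75 in KO and 46.5 ± 1.06 in WT (SD, n = 3 each). On the same scale every KO library was above every WT library for Ilk (18.8 ± 1.13 in KO, 14.5 ± 1.44 in WT), Itgav (18.5 ± 1.47 in KO, 14.6 ± 0.93 in WT), Parva (35.1 ± 1.68 in KO, 31.8 ± 0.36 in WT) and Itgb1 (88.7 ± 14.1 in KO, 77.3 ± 2.08 in WT), and the other 4 genes overlapped. The lower base raises every gene in KO on this scale, and the share of all genes tested that were apart on it was not computed. Which genes stood lower or higher in KO thus depended on whether total counts or podocyte markers were the base.

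Of the adaptors that tie the integrin tail to actin, Tln1 (ENSMUSG00000028465, chr4:43544391-43575563, minus strand) stood at 988, 1026 and 1038 CPM in KO1 to KO3, against 989, 964 and 1091 CPM in WT1 to WT3. The groups overlapped fully. Its log2 fold change was 0.00 (SE 0.06, edgeR adjusted p = 0.982), and the sign turned when KO2 (-0.01), KO3 (-0.02), WT1 (-0.02) or WT2 (-0.03) was left out. Its part with the smallest usage p, part 65 of 38 bases, held 4 to 12 counts per KO library and 14 to 15 per WT library. The natural log usage of this part was -0.96 (edgeR adjusted p = 1.0).

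Vcl (ENSMUSG00000021823, chr14:21748655-21852895, plus strand) stood at 651, 811 and 767 CPM in KO1 to KO3, against 651, 605 and 692 CPM in WT1 to WT3. KO2 and KO3 were above all WT libraries and KO1 was level with WT1. The log2 fold change of 0.20 (SE 0.10) did not pass (edgeR adjusted p = 0.285). Vcl over Tln1 in CPM per kb was 1.23, 1.48 and 1.39 in KO1 to KO3, against 1.23, 1.18 and 1.19 in WT1 to WT3, with KO1 only just above WT1 (exact permutation test, two-sided p = 0.1, adjusted 0.2). 10 parts of Vcl overlap Ap3m1 and 2 of Tln1 overlap Creb3, and both genes kept their direction over parts that overlap no other gene.

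**Figure D4:**
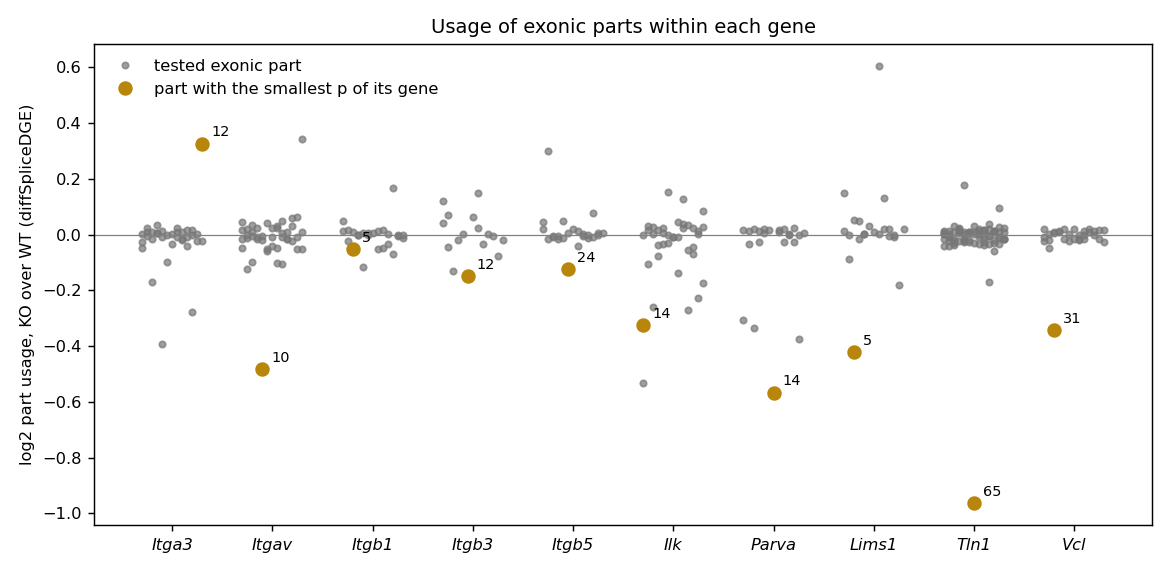
Usage of every tested exonic part, KO over WT, relative to its gene (diffSpliceDGE in edgeR), for the 10 genes. Values are natural logs, although the axis is labelled log2. Grey points are parts and gold points are the part with the smallest p of each gene, with its number. Most parts lie near 0, and the gold points of Lims1 (part 5, -0.42) and Itga3 (part 12, 0.33) lie on opposite sides of it.

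Over the whole adhesion complex, use of exons did not pass the test. None of the 333 tested parts of the 10 genes passed diffSpliceDGE in edgeR, against 0.0627% of 236061 parts in the whole table, and none of the 10 genes passed its Simes test, against 0.383% of 15145 genes. At an unadjusted p under 0.05 there were 7 of 333 parts, 2 in Ilk and 1 each in Itga3, Itgav, Lims1, Parva and Tln1, and 2746 of 236061 in the whole table. The whole-table share is below the 0.05 that unchanged parts would give, so this usage test was conservative and parts that did not pass may still differ. When the gene total served as offset, 14177 of 236061 parts had an unadjusted p under 0.05. With limma-voom diffSplice 2 of the 10 genes passed, Itga3 (limma adjusted p = 2.89e-05) and Lims1 (5.38e-05). That method called more genes in the whole table, 245 of 15145. The remaining genes had their smallest p at Itgav part 10 (natural log usage -0.48), Itgb1 part 5 (-0.05), Itgb3 part 12 (-0.15), and, on the same scale, Itgb5 part 24 (-0.12) and Vcl part 31 (-0.34). Each of these parts had an edgeR adjusted p of 1.0. A cassette of Itgav, parts 15 and 16, which an annotated transcript skips, took 42.7 ± 0.31% of the counts with its neighbours in KO and 42.7 ± 0.08% in WT (SD, n = 3 each; two-sided p = 0.9 in the exact permutation test).

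Around the 10 genes stands a wider set of adhesion genes, grouped by role. The other integrin chains held 21 tested genes, of which none passed; 15 were above 0 and 6 below 0, with a median log2 fold change of 0.11. Their smallest p-values were those of leukocyte chains: Itgam, the alpha chain of the macrophage integrin Mac-1, at 9.72, 8.02 and 10.9 CPM in KO1 to KO3 against 6.29, 4.96 and 6.18 CPM in WT1 to WT3 (log2 fold change 0.71, edgeR adjusted p = 0.0608), and its partner Itgb2 at 24.8, 16.5 and 20.7 CPM in KO1 to KO3 against 10.98, 9.36 and 13.8 CPM in WT1 to WT3 (0.86, adjusted p = 0.0707). The macrophage markers, of which 4 of 10 rose (Lyz2, Spi1, Tyrobp and Ctss; 1 of 10 without KO1, KO2, KO3, WT1 or WT3, and 0 without WT2), were higher in the same libraries; their part in these values was not tested. Per kb over all parts, the chain next in level to Itgb1 and Itgb5 was Itga8, the nephronectin receptor chain, at 193 ± 25.03 CPM per kb in KO and 184 ± 20.8 in WT (SD, n = 3 each).

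Relatives and partners of the ILK complex held 6 tested genes, and none passed (median -0.12; 5 below 0). Lims2 stood at 106, 106 and 97.2 CPM in KO1 to KO3, against 116, 130 and 136 CPM in WT1 to WT3 (log2 fold change -0.30, edgeR adjusted p = 0.0810), and Ilkap, a phosphatase that binds ILK, had a log2 fold change of -0.18 (adjusted p = 0.159). Both members of the PINCH pair were lower in each KO library, and only Lims1 passed; the difference between their fold changes is that of the Lims1 to Lims2 ratio, which overlapped. None of 16 activators and inhibitors of integrins passed (median -0.05), Apbb1ip, the talin recruiter RIAM of blood cells, having 0.77 (adjusted p = 0.0763) and the epithelial kindlin Fermt1 1.14 (adjusted p = 0.135). Fermt1 was highest in KO2 (4.92 CPM, against 2.30 in KO1 and 2.22 in KO3), the library with the highest sum of loop, distal tubule and collecting duct markers, whose part in it was not tested.

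Adhesion plaque and actin linkers held 23 tested genes, of which 2 fell and none rose (median -0.08; 16 below 0). Both were adaptors of the Crk family, which link phosphorylated paxillin and p130Cas to Rac activation. Crkl fell to 45.98 ± 1.32 CPM in KO, against 58.3 ± 1.84 CPM in WT (SD, n = 3 in both groups; log2 fold change -0.34, edgeR adjusted p = 0.0288), and Crk fell to 219 ± 3.75 CPM in KO, against 264 ± 8.01 CPM in WT (-0.27, adjusted p = 0.0390). Of 18 adhesion signalling genes none passed and 14 were below 0 (median -0.12), with Dock1, the Rac exchange factor downstream of Crk, at 162 ± 4.37 CPM in KO and 187 ± 3.60 CPM in WT (-0.21, adjusted p = 0.0600), and the Rac effector kinase Pak1 at 312 ± 39.3 CPM in KO and 418 ± 26.6 CPM in WT (-0.42, adjusted p = 0.0775).

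Of 23 integrin ligand genes 1 rose and 1 fell (median -0.05). Npnt, which encodes nephronectin, the ligand of integrin alpha8 beta1, rose to 1585, 1764 and 1565 CPM in KO1 to KO3, against 1186, 1104 and 1008 CPM in WT1 to WT3 (log2 fold change 0.58, SE 0.08, edgeR adjusted p = 0.0297). Col4a5, a chain of the mature basement membrane's collagen IV network, fell to 511, 482 and 454 CPM in KO1 to KO3, against 650, 612 and 631 CPM in WT1 to WT3 (-0.39, SE 0.06, adjusted p = 0.0342). The groups were well apart for both. Of 10 membrane partners 1 rose and 1 fell (median -0.03), and both are tetraspanins: Cd82 rose to 289 ± 18.7 CPM in KO, against 228 ± 4.37 CPM in WT (SD, n = 3 each; 0.34, adjusted p = 0.0402), and Cd151, which binds the alpha3 beta1 integrin directly, fell to 328 ± 6.06 CPM in KO, against 386 ± 2.78 CPM in WT (-0.23, adjusted p = 0.0449). None of 10 trafficking genes passed (median -0.03), the smallest p-values being those of Rab25 (1.58, adjusted p = 0.173, likewise highest in KO2) and Snx17 (0.05, adjusted p = 0.461).

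With 1 library left out, which also leaves fewer samples, these 6 calls mostly did not hold. Without any 1 of the 6 libraries, Crk, Npnt, Col4a5, Cd82 and Cd151 did not pass, with adjusted p-values between 0.0517 and 0.188, and Crkl passed without WT3 alone (Crkl without the others 0.0503 to 0.138). Cd151 also did not pass with no filter on low counts (adjusted p = 0.0582). Each list's share of calls stood beside 3.37% of all genes tested. The podocyte markers, of which 1 of 12 fell (Nphs1, the slit diaphragm gene nephrin, log2 fold change -0.53, edgeR adjusted p = 0.0350, and 0.0588 to 0.150 without any 1 library), had a summed level that was lower in the same KO libraries as Lims1, Crk, Crkl, Col4a5 and Cd151; its part in these falls was not tested.

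**Figure D5:**
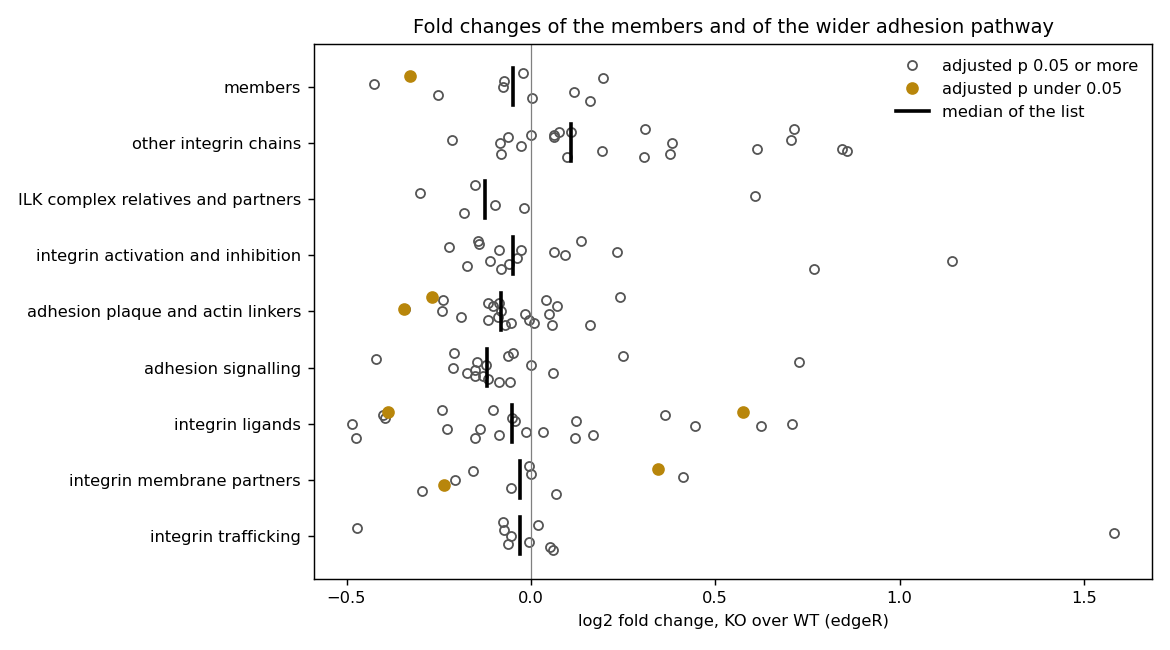
Log2 fold changes, KO over WT, of the 10 genes and of 8 lists of other adhesion genes (edgeR); circles are genes, gold ones those with an adjusted p under 0.05, and black bars are the medians of the lists. Lims1 is the gold point among the 10 genes, and the others are Crkl, Crk, Col4a5, Npnt, Cd151 and Cd82.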

How the data were processed

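Polyadenylated RNA of 6 podocyte libraries was analysed. In each deposited table the authors give, per exonic part (Ensembl 67, mouse build NCBIM37, per the file headers), a raw read count, its length, how many bases were covered and the covered fraction. TopHat 1.4.1 is named in the submitters' processing notes, with the human build GRCh37 in place of the mouse build of the files. Which tool counted, and whether by strand, is not given in the sources used here. A read over several parts counts in each. Symbols were matched by Ensembl identifier (31300 of 35981 single identifiers).

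Gene counts went through edgeR 4.0.16, under R 4.3.3 (TMM, filterByExpr, quasi-likelihood, KO against WT, no covariates), part usage with its diffSpliceDGE in genes with at least 2 parts, both over the whole table. Shares and ratios per library were tested by exact two-sided permutation in SciPy 1.17.1; with 3 against 3 the smallest p is 0.1. The procedures were tested on simulated data. Alternatives were RLE normalization, other filters, a replicate block, DESeq2 1.42.0, limma-voom (limma 3.58.1), parts overlapping no other gene, a gene total offset and leaving out each library. Replicate libraries differed by 76.3 to 220 in chi-square per gene, so none was counted as a duplicate. The SE of log2 fold changes had a median of 0.13 over genes.

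The 10 genes and all lists were chosen with earlier results of these data known. By rule the text names the 10 genes, each list gene past the test (else the smallest p, up to 2 a list), each gene's part with the smallest usage p, and Cd2bp2. The shares and ratios, Itga8 and Nphs1 were chosen after their values were seen.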

Additional observations from a re-analysis of the deposited data

How the results depend on the processing

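The number of genes past the test, 666, was 82 with the replicate block, 2541 with DESeq2 and 31 to 254 with 1 library left out. Of the 10 genes 1 passed; 0 did so with the replicate block, 3 with DESeq2 and 0 to 1 with 1 library left out. Parts past the usage test, 148, numbered 409 with limma-voom diffSplice, 315 with the gene total as offset and 52 to 175 with 1 library left out. Of the 10 genes none passed the usage test. With limma-voom diffSplice 2 did so (245 of 15145 over all genes), with the replicate block 1 (58 of 15145), and with 1 library left out 0 to 1. The cause was not tested; leaving out a library also leaves fewer samples.

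Itga3, Itgav, Itgb3, Itgb5, Ilk, Parva, Lims1 and Vcl kept the sign of their fold change under each alternative. Itgb1 turned without KO1 (0.015), KO3 (0.0311) or WT1 (0.0092) and ran from -0.137 to 0.0311 over the 6 left-out libraries, and Tln1 turned without KO2 (-0.0128), KO3 (-0.016), WT1 (-0.0152) or WT2 (-0.033) and ran from -0.033 to 0.0581. Lims1 passed in 8 of 14 alternatives, with adjusted p from 0.000322 to 0.179. Ilk has no value over parts that overlap no other gene. With 1 library left out, the Lims1 first-exon difference ran from -16.9 to -12.1 points.

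Whether replicate numbers pair the libraries was not clear: deviations of same-numbered libraries correlated by 0.16, -0.12 and 0.24. KO1 and KO3 correlated best with the WT library of their own number, but KO2 correlated best with WT1 (0.22). With the replicate as a block the Lims1 adjusted p was 0.102 and that of its part 5 usage 0.0163. The block also ended the calls of Crk (0.107), Crkl (0.0911), Col4a5 (0.0825), Npnt (0.0725), Cd151 (0.114), Cd82 (0.0848), Nphs1 (0.0848) and Cd2bp2 (0.0893), and left 1 of the 4 macrophage calls.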
